A study of Panonychus citri with 4 samples.

Results

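The microRNAs miR-10 and miR-993 of the citrus red mite (Panonychus citri), a spider mite that feeds on citrus leaves, made up 15 of the 594 miRNA names listed over 4 developmental stages. They were chosen by name alone, as every listed miR-10 or miR-993 with or without a letter or an arm suffix, and 7 of the names belonged to miR-10 and 8 to miR-993. Of the 15 names, 7 were listed in embryos, 9 in larvae, 12 in nymphs and 9 in adults. Names of the same miRNA whose sequences overlapped without a mismatch over at least 17 bases were summed into sequence groups, which left 9 groups of 366.

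Small RNAs of 18 to 30 nucleotides were sequenced from pools of whole animals, with 1 library per stage. The embryo pool held over 3000 animals, the larval pool 2500, the nymphal pool, of protonymphs together with deutonymphs, 1500 and the adult pool 1000. There are no replicates, so no difference has a replicate check or a p-value, and each value describes a library and not a stage in general. All intervals are 95% exact (Clopper-Pearson) intervals. PCR copies of the same molecule are counted as separate reads, so the intervals take in counting error alone. Reads assigned to listed miRNAs numbered 248256, 1012278, 1258698 and 438409 from embryo to adult, which was 4.17%, 17.04%, 21.2% and 7.41% of library totals between 5918115 and 5957910 reads. Levels are therefore given on both scales, as a percentage of the listed reads and as reads per 1000000 of the library total (library RPM). In whole animals, fewer cells of a type and less of the miRNA per cell cannot be told apart. Muscle miRNAs (miR-1 and miR-133, with 5, 11, 15 and 8 of 18 names listed from embryo to adult) summed to 19.6%, 50.2%, 51.1% and 47.2% of listed reads, the neuronal miR-124 names (6, 7, 8 and 6 of 11 listed) to 1.34%, 1.17%, 2.18% and 1.20%, and plant-type names to 0 reads. The part of these in the levels below was not tested.

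A miRNA is cut from a hairpin as a duplex of a 5p and a 3p strand, of which usually one is loaded into an Argonaute protein, and its seed (bases 2 to 8) pairs with target mRNAs. The miR-10 gene lies inside the Hox cluster of many bilaterian animals, among the genes that set segment identity along the head-to-tail axis, and insects carry the related miR-993 there as well. Which arm of miR-10 dominates is known to differ between the fruit fly and the flour beetle. The genome positions of both genes in this mite were not analysed here.

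The sequences that carried nearly all reads of both miRNAs are shown with miR-10, which begins 1 base later. They are printed as DNA letters from the deposited lists, 5′ to 3′, with the seed in capitals.
miR-10-3p: gAATTCGGctctagagaggttt
miR-10-5p: cACCCTGTagatccgaatttgt
miR-10: aCCCTGTAgatccgaatttgt
miR-993-5p: tACCCTGTagacccgggctttt
miR-993a-3p: gAAGCTCGtttctacaggttt

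The 5p strands of miR-10 and miR-993 had the same seed, while their 3p strands did not. Over 22 aligned bases miR-993-5p equalled miR-10-5p at 16, with the differences C1T, T12C, A16G, A17G, T18C and G21T (the miR-10-5p base first, counted from its 5′ end), and all 7 seed bases were equal. The seed of miR-10-3p (AATTCGG) and that of miR-993a-3p (AAGCTCG) were equal at 3 of 7 positions. No listed name outside miR-10 and miR-993 carried any of the 5 seeds found among the members. In a duplex prediction with RNAduplex, each 5p strand paired more stably with the 3p strand of its own miRNA, at -20.9 kcal/mol for miR-10 and -24.0 kcal/mol for miR-993, than with that of the other, at -16.9 kcal/mol for miR-10-5p with miR-993a-3p and -16.1 kcal/mol for miR-993-5p with miR-10-3p. These 4 energies describe the sequences and were not set against other pairs.

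The dominant arm differed between the 2 miRNAs. Reads of miR-10 came almost wholly from the 3p arm and those of miR-993 mostly from the 5p arm, in each of the 4 libraries. For miR-10 the 5p arm held 70 of 16387 reads in embryos, 271 of 57561 in larvae, 243 of 53221 in nymphs and 55 of 9397 in adults. These are 5p shares of 0.427% (0.333 to 0.539), 0.471% (0.417 to 0.530), 0.457% (0.401 to 0.518) and 0.585% (0.441 to 0.761). The intervals of all 4 libraries overlapped, and the odds of 3p to 5p reads had an interval that included 1 in all 6 pairs of libraries, from 0.729 (0.504 to 1.06) for adult over embryo to 1.03 (0.864 to 1.23) for nymph over larva. A change of the miR-10 arm balance was thus not detectable at this depth.

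The arm balance of miR-993 differed between the embryo and the 3 later libraries. Its 3p arm held 445 of 7009 reads in embryos, 2718 of 11747 in larvae, 5143 of 24457 in nymphs and 951 of 4629 in adults. The 3p share was 6.35% (5.79 to 6.95) in embryos, 23.1% (22.4 to 23.9) in larvae, 21.03% (20.5 to 21.5) in nymphs and 20.5% (19.4 to 21.7) in adults. The embryo was low and the other 3 lay close together, with no overlap of intervals between the embryo and any of them. The odds of a 3p read were 4.44-fold higher in the larva than in the embryo (3.99 to 4.94), 3.93-fold higher in the nymph (3.55 to 4.35) and 3.81-fold higher in the adult (3.38 to 4.31). Nymph over larva stood at 0.885 (0.839 to 0.933) and adult over nymph at 0.971 (0.897 to 1.05). Being a share within a library, this balance does not depend on how libraries are scaled to each other. That the 5p and 3p strands of each miRNA come from the same hairpin was taken from their names and was not tested. Among 17 families with both arms and at least 30 reads in both libraries, 1 (5.88%) had odds of 3p to 5p reads more than 2-fold higher in the larva than in the embryo, with the interval wholly above 2-fold, and that 1 was miR-993. The same call was made for 15.0% of 20 families in the nymph against the embryo (miR-993, miR-124 and miR-184) and for 11.8% of 17 in the adult against the embryo (miR-993 and miR-184). In the other direction, odds more than 2-fold lower than in the embryo were called for 5.88% of families in the larva (miR-34), 10% in the nymph (miR-305 and miR-7) and 17.6% in the adult (miR-34, miR-305 and miR-7), so miR-993 was not the only family whose arm balance set the embryo apart.

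**Figure D1:**
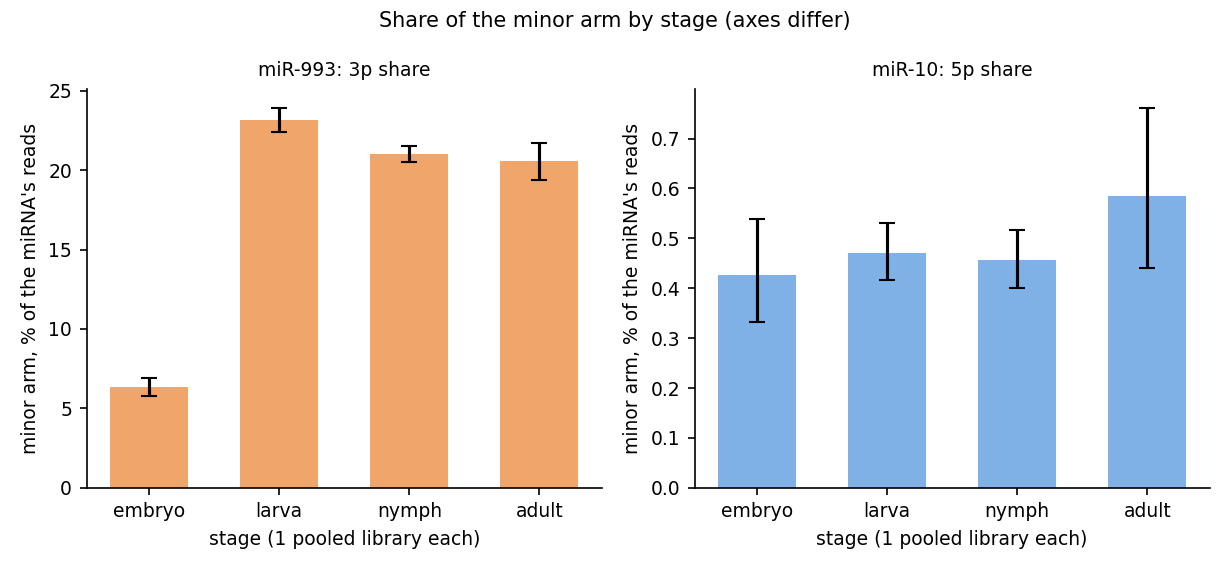
Share of the minor arm in the reads of miR-993 (3p, left) and miR-10 (5p, right) by stage, in percent, with 95% exact binomial intervals; the vertical axes differ. The miR-993 3p share is 6.35% in the embryo and between 20.5% and 23.1% later, while the miR-10 5p share stays between 0.427% and 0.585% with overlapping intervals.

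The seed shared by both 5p strands (ACCCTGT) was supplied almost entirely by miR-993. It was carried by 7 names, 2 of miR-10 and 5 of miR-993, with 6617 reads in embryos, 9249 in larvae, 19525 in nymphs and 3719 in adults. Of these reads miR-993 gave 99.2% (98.95 to 99.4), 97.6% (97.3 to 97.9), 98.9% (98.8 to 99.1) and 98.9% (98.5 to 99.2). The seed of miR-10-3p held 6.57%, 5.66%, 4.21% and 2.13% of all listed reads from embryo to adult, against 2.67%, 0.914%, 1.55% and 0.848% for the shared 5p seed and 0.179%, 0.269%, 0.409% and 0.217% for the seed of miR-993a-3p.

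Together the 15 names held 9.42% (9.31 to 9.54) of listed reads in embryos, 6.85% (6.80 to 6.90) in larvae, 6.17% (6.13 to 6.21) in nymphs and 3.20% (3.15 to 3.25) in adults. In library RPM the order was different, with 3927, 11666, 13067 and 2370. By either scale the adult was lowest, while the embryo was highest among listed reads and second lowest in library RPM. Within this sum, miR-993 reads made up 29.96% (29.4 to 30.5) in embryos, 16.9% (16.7 to 17.2) in larvae, 31.5% (31.2 to 31.8) in nymphs and 33.003% (32.2 to 33.8) in adults. The larva thus stood apart, with 4.90 miR-10 reads per miR-993 read against 2.34 in the embryo, 2.18 in the nymph and 2.03 in the adult, and this ratio does not depend on the scaling either.

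The strand miR-10-3p was the leading member, ranking 4, 4, 5 and 6 among all sequence groups from embryo to adult. It had 16317 reads in embryos, 57288 in larvae, 52974 in nymphs and 9341 in adults, each under a single name. Its share of listed reads was 6.57% (6.47 to 6.67), 5.66% (5.61 to 5.70), 4.21% (4.17 to 4.24) and 2.13% (2.09 to 2.17), lower at each later stage with no overlap of intervals. In library RPM it stood at 2739 in embryos, 9643 in larvae, 8911 in nymphs and 1578 in adults, so that the larva and nymph were high and the embryo and adult low. The adult was the lowest library on both scales.

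The minor strand miR-10-5p followed miR-10-3p closely at a level more than 100-fold lower. Its group held the rows miR-10-5p, miR-10 and miR-10a-5p, with 65 reads in embryos, 267 in larvae, 233 in nymphs and 47 in adults. Per 100 reads of miR-10-3p there were 0.398 (0.307 to 0.508), 0.466 (0.412 to 0.526), 0.440 (0.385 to 0.5002) and 0.503 (0.369 to 0.670), with overlapping intervals in all 4 libraries. In library RPM the levels were 10.9, 44.9, 39.2 and 7.94, where neither nymph and larva (ratio 0.872, 0.728 to 1.04) nor adult and embryo (0.728, 0.489 to 1.08) were separated by counting error. The row miR-10-5p, whose sequence begins with C, made up 73.8% (61.5 to 83.97) of the group in embryos, 80.9% (75.7 to 85.4) in larvae, 86.3% (81.2 to 90.4) in nymphs and 70.2% (55.1 to 82.7) in adults. The remaining rows have sequences that begin 1 base later, with the seed CCCTGTA. They were miR-10, with 17, 51 and 14 reads in the embryo, larva and adult, and the 19-base miR-10a-5p, with 32 reads in the nymph. No library listed both of these rows. Where each read began is not known from these counts, as the matching rule is not given.

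The strand miR-993-5p, with the most reads of any miR-993 name, ranked 8, 10, 7 and 11 among groups. It had 6562 reads in embryos, 9025 in larvae, 19291 in nymphs and 3677 in adults. Its share of listed reads was 2.64% (2.58 to 2.71), 0.892% (0.873 to 0.910), 1.53% (1.51 to 1.55) and 0.839% (0.812 to 0.866). On this scale the embryo was highest, then the nymph, then the larva, with the adult slightly below the larva (adult over larva 0.941, 0.905 to 0.978). In library RPM the values were 1101, 1519, 3245 and 621, with the nymph highest and the adult lowest.

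The other arm of miR-993 had a different stage order. The miR-993a-3p group, which includes the 19-base row miR-993 with 16, 26 and 6 reads in the larva, nymph and adult, had 445 reads in embryos, 2718 in larvae, 5140 in nymphs and 951 in adults. Its share of listed reads was 0.179% (0.163 to 0.197), 0.269% (0.259 to 0.279), 0.408% (0.397 to 0.420) and 0.217% (0.203 to 0.231). In library RPM it stood at 74.7, 457, 865 and 161. The nymph was highest and the embryo lowest on both scales, and no pair of neighbours in this order was within counting error.

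**Figure D2:**
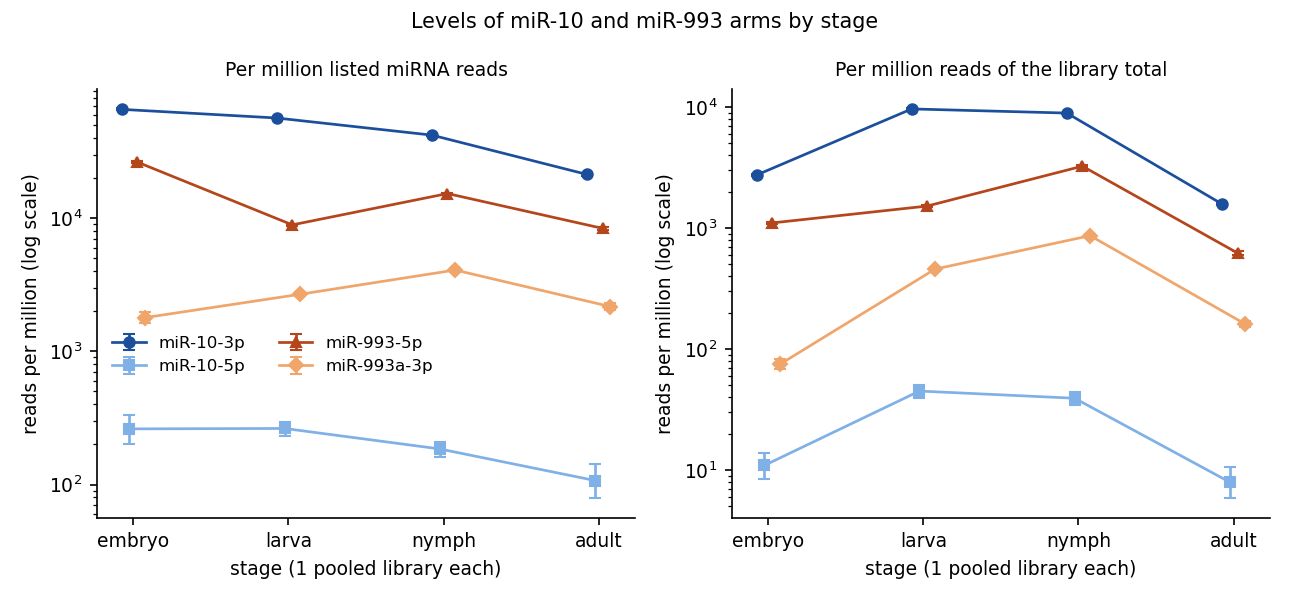
Levels of the 4 main miR-10 and miR-993 sequence groups by stage on a log axis, per 1000000 listed miRNA reads (left) and per 1000000 reads of the library total (right); bars are 95% exact binomial intervals. The adult is lowest for miR-10-3p, miR-10-5p and miR-993-5p on both scales, whereas miR-993a-3p is lowest in the embryo. For miR-10-5p the embryo and adult intervals overlap in the right panel.

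The 5 remaining groups held 8 names and 67 reads in all, between 3 and 27 each, and none had enough reads for a ratio. They made up 0.0299%, 0.0144%, 0.0515% and 0.0713% of the member reads from embryo to adult. All 8 names differed from the main sequence of their arm by 1 or 2 bases. Counted from the 5′ end of the main sequence, which gives the first base, miR-993b-5p, miR-993a-5p and miR-993d-5p carried C12T, miR-993c-5p A9G and G10A, miR-993b-3p C12T, miR-10b-5p C1T and T12A, and miR-10e-3p and miR-10a-3p G1A and C9T. The row miR-10b-5p was listed in every library with 5, 4, 10 and 8 reads.

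Ratios of 2 libraries were called beyond 2-fold when at least 30 reads were counted over both and the whole interval lay above 2-fold or below its inverse. Only the 4 main groups had enough reads. Because the listed share of the libraries differed, changing from listed reads to library totals multiplied all ratios of larva over embryo by 4.09. The median log2 ratio over all 76 groups tested moved from -1.02 to 1.01, and ratios are therefore also given relative to that median, which does not depend on the scaling.

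In the larva against the embryo, 0 of the 4 groups were higher and 1 was lower among listed reads, against 21.1% higher and 44.7% lower among all groups tested. The lower group was miR-993-5p, 2.96-fold lower in the larva (2.87 to 3.06), a call made in 1 of the 5 scalings tried. Its ratio was 0.544 with miR-1 left out of the totals, 0.944 with median-of-ratios scaling and 0.793 with TMM scaling, none of them called. With the library totals its ratio turned to 1.38 (1.34 to 1.42) and had no call, while miR-10-3p (3.52, 3.46 to 3.58), miR-10-5p (4.12, 3.13 to 5.49) and miR-993a-3p (6.13, 5.54 to 6.79) were higher, 3 of 4 against 44.7% of all groups. The call of miR-993a-3p as higher was made in 4 of the 5 scalings, all but listed reads. Relative to the median group, the log2 ratio was 0.81 for miR-10-3p, 1.03 for miR-10-5p, 1.60 for miR-993a-3p and -0.55 for miR-993-5p. The strand miR-993-5p therefore lay on the other side of the median from the other 3, among them miR-993a-3p.

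In the nymph against the larva, 0 of 4 groups were called among listed reads, where 12.8% of 86 groups were higher and 3.49% lower. Both miR-993 arms had ratios above 1, 1.72 (1.68 to 1.76) for miR-993-5p and 1.52 (1.45 to 1.59) for miR-993a-3p, and both miR-10 arms below 1, 0.744 (0.735 to 0.753) for miR-10-3p and 0.702 (0.586 to 0.840) for miR-10-5p. With the library totals miR-993-5p was higher (2.14, 2.08 to 2.19), 1 of 4 against 19.8% of all groups. The 2 miRNAs were on opposite sides of the median log2 ratio, at 0.40 and 0.23 above it for miR-993-5p and miR-993a-3p and at -0.81 and -0.89 for miR-10-3p and miR-10-5p.

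In the adult against the nymph, the 4 groups had nearly the same ratio. It was 0.506 (0.495 to 0.518) for miR-10-3p, 0.579 (0.414 to 0.795) for miR-10-5p, 0.547 (0.528 to 0.567) for miR-993-5p and 0.531 (0.495 to 0.569) for miR-993a-3p among listed reads. None was called there, where 10.5% of 86 groups were higher and 10.5% lower, although miR-10-3p lay at the threshold, 1.98-fold lower in the adult (1.93 to 2.02). With the library totals 4 of 4 were lower, from 4.94-fold (3.59 to 6.90) for miR-10-5p to 5.65-fold (5.52 to 5.77) for miR-10-3p, against 45.3% of all groups. Relative to the median group, all 4 lay between -1.12 and -1.31 on the log2 scale.

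**Figure D3:**
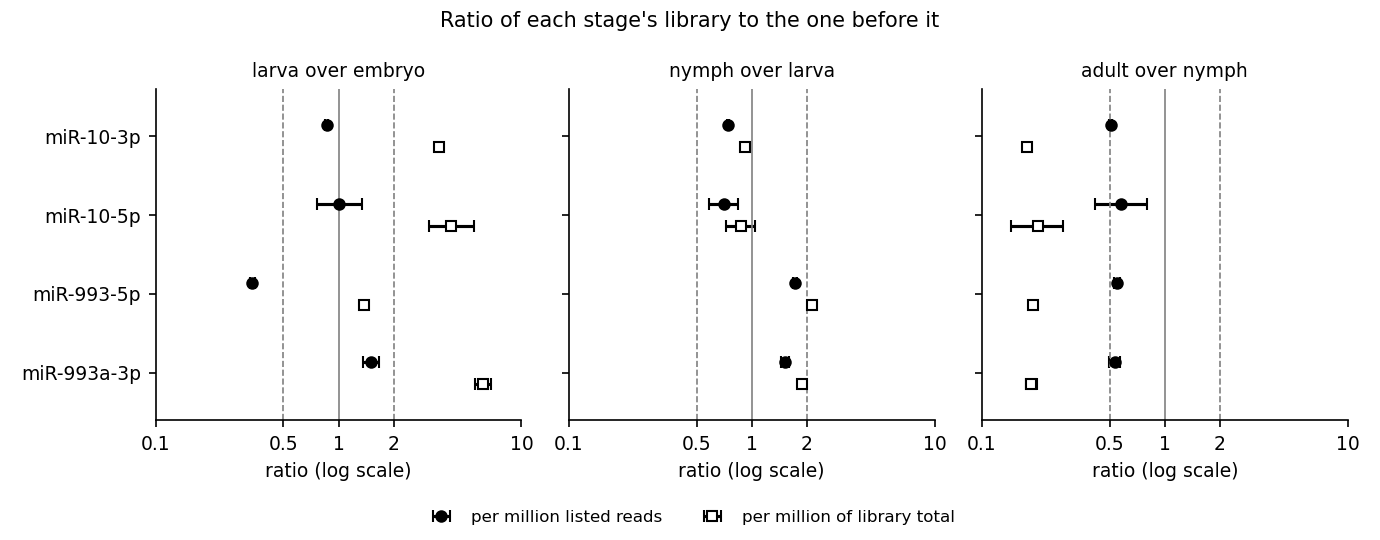
Ratio of each stage's library to the one before it for the 4 main groups, on a log axis, per 1000000 listed reads (filled circles) and per 1000000 reads of the library total (open squares), with 95% exact intervals; dashed lines mark 2-fold. For adult over nymph the 4 groups share nearly the same ratio, whereas for larva over embryo miR-993-5p lies below the other 3 on both scales.

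Across wider spans, 1 call for a higher and 1 for a lower group held under all 5 scalings tried. In the nymph against the embryo, miR-993a-3p was 2.28-fold higher (2.07 to 2.51) among listed reads and 11.6-fold higher (10.5 to 12.8) with the library totals, 1 and 4 of 4 groups against 30.1% and 53.0% of 83 groups. Among listed reads 33.7% of the 83 groups were lower, and 0 of the 4. Relative to the median group, the log2 ratio of nymph over embryo was 1.83 for miR-993a-3p. It was 0 for miR-10-3p, 0.14 for miR-10-5p and -0.14 for miR-993-5p, so these lay at or near the median. In the adult against the larva, miR-10-3p was 2.66-fold lower (2.60 to 2.71) among listed reads and 6.11-fold lower (5.98 to 6.25) with the library totals, 1 and 4 of 4 groups against 8.86% and 25.3% of 79. Among listed reads 27.8% of the 79 were higher, and 0 of the 4. Relative to the median group, the log2 ratio of adult over larva was -2.29 for miR-10-3p and -2.18 for miR-10-5p. It was -0.97 for miR-993-5p and -1.19 for miR-993a-3p. In the adult against the embryo, the ratio among listed reads was 0.324 (0.316 to 0.333) for miR-10-3p and 0.317 (0.305 to 0.330) for miR-993-5p, both called lower, 2 of 4 groups against 9.72% of 72, where 27.8% were higher. Both were also called lower with median-of-ratios and with TMM scaling, each time 2 of 4 groups against 8.33% of 72, where 27.8% were higher. With the library totals 0 of 4 were called in that pair, where 29.2% of groups were higher and 5.56% lower. The ratios of miR-10-3p and miR-993-5p were then 0.576 (0.562 to 0.591) and 0.564 (0.542 to 0.587). In the same pair miR-993a-3p had a ratio of 1.21 (1.08 to 1.36) among listed reads and 2.15 (1.92 to 2.41) with the library totals, neither called. Relative to the median group, the log2 ratio of adult over embryo was -0.99 for miR-10-3p and -0.65 for miR-10-5p. It was -1.02 for miR-993-5p and 0.91 for miR-993a-3p.

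The stage patterns of the 2 arms of miR-10 were closer to each other than those of miR-993. Likeness was measured as the root mean square difference of log2 levels centred over the 4 libraries, which is the same under any scaling, among groups with at least 30 reads in each library. Of 47 other groups, miR-10-5p was the nearest to miR-10-3p, at 0.12, where the median group lay at 1.06. Next to miR-10-3p came miR-71-3p (0.35), miR-71a-5p (0.37), miR-9a-3p (0.53) and miR-993-5p (0.56), and next to miR-10-5p came miR-71-3p (0.24), miR-71a-5p (0.28), miR-263-5p (0.53) and miR-9a-3p (0.54). In contrast miR-993a-3p ranked 27 by likeness to miR-993-5p, at 0.88, where the median group lay at 0.85, while miR-993-5p ranked 19 by likeness to miR-993a-3p, at the same 0.88, where the median group lay at 1.16. The groups most like miR-993-5p were miR-9a-3p (0.13), miR-279-3p (0.35), miR-9-5p (0.36), miR-199a-3p, a name known from vertebrates (0.48), and miR-305-3p (0.51). Those most like miR-993a-3p were miR-2b-3p (0.27), the neuronal miR-124-3p (0.27), the muscle miR-1 (0.41), miR-5735-3p (0.43) and miR-278-3p (0.50). These are descriptions over 4 libraries.

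**Figure D4:**
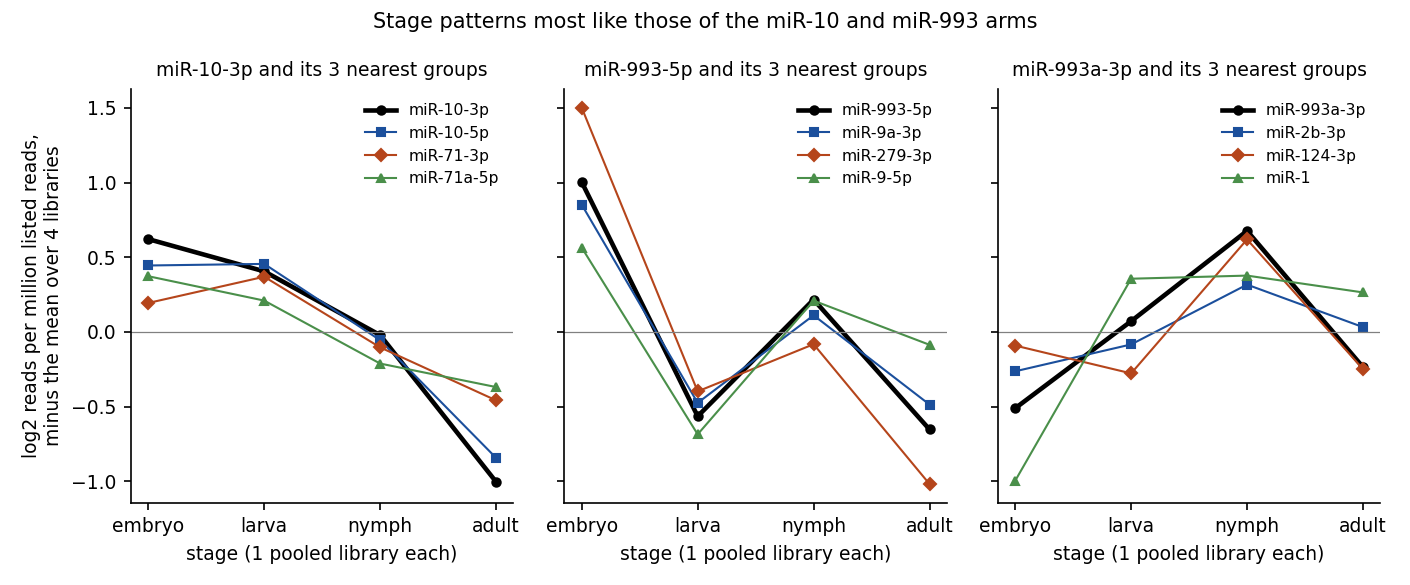
Log2 reads per 1000000 listed reads minus the mean over the 4 libraries for miR-10-3p, miR-993-5p and miR-993a-3p (thick black lines), each with its 3 nearest groups by root mean square difference. The miR-10-3p panel declines toward the adult, the miR-993-5p panel is highest in the embryo with a second high in the nymph, and miR-993a-3p is highest in the nymph.

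Relatives of miR-10 outside these 2 names were scarce. The miR-99, miR-100 and miR-125 names, which belong to the wider miR-10 family, numbered 11 in 6 groups and summed to 28 reads in embryos, 9 in larvae, 30 in nymphs and 16 in adults. Their 1 group with enough reads, miR-125-5p, had 12 nymph and 18 embryo reads. Its ratio of 0.131 (0.0578 to 0.289) was called lower among listed reads, where 33.7% of 83 groups were. It was also called lower without miR-1 in the totals (0.215, 0.0945 to 0.472), against 8.43%. No call was made with the library totals (0.668, 0.294 to 1.47), median-of-ratios (0.281, 0.123 to 0.616) or TMM scaling (0.247, 0.109 to 0.543). Of the other miRNAs known from Hox clusters, the 4 miR-196 names summed to 8, 2, 4 and 2 reads, with 0 of 2 groups measurable. Rows of miR-iab-4, miR-iab-8 and miR-615 were looked for under these names and numbered 0, which does not show absence. The floor of 3 reads, chosen for rows missing from a library, equals 12.1, 2.96, 2.38 and 6.84 reads per 1000000 listed reads from embryo to adult. The lists also hold rows with fewer reads.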

How the data were processed

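Per the labels' protocols, RNAs in the size range were isolated on a 15% polyacrylamide gel, and adapter ligation, reverse transcription and PCR made 1 pooled library per stage. Per the file headers, each deposited list pairs a miRNA name with its sequence, a read count and a normalized value. The counts that the authors deposited are whole numbers of at least 1. The normalized value is the authors' reads per 1000000 (RPM): dividing count by value gave 1 constant total in all rows of a library, used here as the library total. No source used here gives the read-matching program, reference, mismatch rule or build, or says whether a count covers other read lengths, so a missing row does not show absence.

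Stages were taken from the labels. Counts were scaled to the listed reads and, as alternatives, to the library totals, to listed reads without miR-1, by median-of-ratios over 105 names and by TMM (edgeR 4.0.16). Each name joined the most abundant name of its family that it overlapped without mismatch over at least 17 bases. Ratios have exact conditional binomial intervals and arm balances exact conditional odds ratios (scipy 1.17.1). For the ratio itself, a name or group with no row in a library was set to 3 reads. The interval, and so the call, used 0 reads for it, as did shares and sums. Names without an arm suffix took the arm of the name they overlap. Duplexes were predicted with RNAduplex 2.7.2. The interval and call were tested on counts simulated with counting error alone. That test therefore cannot speak to PCR copies or to variation between libraries. Named are all members, the lists of relatives, names with a member's seed, the 5 groups most like each main group, and miR-1. The members and lists were chosen with earlier results of these data known, and the count of families by arm balance was added after seeing the data.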

Additional observations from a re-analysis of the deposited data

How the results depend on the processing

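The number of the 4 main groups called beyond 2-fold depended on the scaling. With the library totals it was 3 for larva over embryo, 1 for nymph over larva, 4 each for adult over nymph, nymph over embryo and adult over larva, and 0 for adult over embryo, against 1, 0, 0, 1, 1 and 2 among listed reads. With median-of-ratios scaling it was 3 (higher) for larva over embryo, 3 (lower) for adult over nymph and 4 (lower) for adult over larva, against 39.5%, 23.3% and 24.1% of all groups in that direction. With TMM it was 3 and 3 for the last 2 pairs, against 23.3% and 20.3%. Without miR-1 in the totals it was 1 (lower) for adult over nymph, against 12.8%. It was 0 there for adult over embryo, where 29.2% of 72 groups were higher and 5.56% lower. In that pair miR-10-3p at 0.492 (0.480 to 0.505) and miR-993-5p at 0.482 (0.462 to 0.502) lay at the threshold. For larva over embryo the number called was 1 under TMM and without miR-1 too, but there miR-993a-3p was higher (against 34.2% and 30.3%), and miR-993-5p was not called. By single names, 2 of 7 were called for nymph over larva (1 higher, 1 lower, against 22.6% and 10.4% of all 115 names) and 1 of 6 for adult over nymph (lower, against 21.2% of 113). These were the rows miR-10 and miR-10a-5p of the miR-10-5p group, listed in different libraries. Ratios also changed side of 1. The miR-993-5p ratio of larva over embryo turned to 1.38 with the library totals. The miR-10-3p ratio, 0.861 for larva over embryo and 0.640 for nymph over embryo among listed reads, was 1.39 to 3.52 and 1.05 to 3.25 under the other 4 scalings. For nymph over embryo miR-10-5p, at 0.707, was 1.16 to 3.59 under the same 4, and miR-993-5p, at 0.580, was 1.09 to 2.95 under all but the totals without miR-1. The cause was not tested beyond the change of denominator. Minimums of 1, 10 or 100 reads left the numbers of groups called among listed reads unchanged. Overlaps of 15 or 19 bases or the leading name alone kept each of the 24 ratios on its side of 1 and its call, although the miR-10-5p ratio of adult over nymph was 0.471 (0.316 to 0.684) for the leading name, against 0.579 for the group. The miR-10 5p share was 0.324%, 0.383% and 0.437% in the embryo, larva and adult from suffixed names alone, and 0.293%, 0.376%, 0.378% and 0.352% from embryo to adult from leading rows alone, since these leave out rows of the arm. The miR-993 arm and family shares stayed within their intervals. The depth of the embryo and adult libraries limits miR-10-5p, with 65 and 47 reads. No paired analysis was possible because each stage has 1 library.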
